A study of Mus musculus with 4 samples.

Results

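Nuclear receptors and their coregulators were followed in mouse kidney after bile duct ligation (BDL), an operation that ties off the common bile duct and models cholestasis. The group was defined by name and holds 36 genes, 33 of them receptors and 3 of them coregulators (Ncoa1, Ncoa2 and Ncor1). A probe was assigned to a gene where its RefSeq accession belongs to that gene. This gave 59 probes for the 36 genes. Of these, 52 probes of 33 genes were well above background on both arrays of the sham group, the BDL group or both. On the same terms 32283 probes were retained. They gave 24044 features, of which 15023 carry a gene symbol, and shares over all features include the unnamed ones. The comparison was between 2 kidneys taken 2 weeks after BDL and 2 kidneys taken 2 weeks after a sham operation, 1 array per sample. All 4 samples are total RNA of whole kidney, and the strain, sex, age and genotype of the mice are not given in the sources used here. In whole tissue, fewer cells of a type and less RNA per cell cannot be told apart.

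Nuclear receptors are transcription factors with a zinc-finger DNA-binding domain and, in most, a pocket for a small lipophilic ligand such as a steroid, retinoid, thyroid hormone, fatty acid, oxysterol or bile acid. Many bind DNA as a pair with a retinoid X receptor (RXR), on repeats of a short hexamer whose spacing sets which pair binds. Without ligand several of them hold corepressors such as NCOR1, and ligand binding exchanges these for coactivators such as NCOA1 and NCOA2. In the kidney, HNF4A is known for its part in proximal tubule identity, and the glucocorticoid receptor for steroid responses along the nephron.

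The hexamer that many of these receptors read, AGGTCA, was looked for in the members' own promoters, because receptor genes can be controlled by receptors. RefSeq windows (GRCm38.p6) of 300 bases, 250 before to 50 after a gene start, were searched on both strands. The table holds 54 windows of 32 members, and none used here for Hnf4g, Ncoa2, Nr3c1 and Thra. AGGTCA stood in 9 of these 54 windows (16.7%), against 16.3% of all 32851 windows, so members held it about as often as any gene. A looser search for a repeat of NGNTCA with a spacer of 1 to 5 bases found 1 member window with a spacer of 3 bases (Rara) and 1 with a spacer of 5 (Rarb), where 0.7% and 0.861% of all windows had such a repeat. The Rarb repeat is of the kind known as a retinoic acid response element. The matches in the retinoid and thyroid hormone receptor genes follow, 5′ to 3′ on the gene's strand, with the match in capitals and its first base counted from the gene start. A match is a description of the sequence and not a measured binding site.
Rarb, chr14:16575506-16575536, minus strand, -53 from the start: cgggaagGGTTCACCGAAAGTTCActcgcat
Rara, chr11:98939674-98939702, plus strand, -30 from the start: tagctgtAGCTCATCCTGATCAcccctgt
Rara, chr11:98964898-98964917, plus strand, 34 from another start: ttgcagcAGGTCAgtccttt
Rarg, chr15:102257735-102257754, minus strand, -225 from the start: aggacacTGACCTctgccag
Rxra, chr2:27709237-27709256, plus strand, -48 from the start: gcaggaaAGGTCAgtcactc
Rxra, chr2:27709198-27709217, plus strand, -87 from the start: atgggtgTGACCTgagtaat
Rxrg, chr1:167618170-167618189, plus strand, -88 from the start: ggttgaaAGGTCAgctgaaa
Thrb, chr14:17660769-17660788, plus strand, -184 from the start: agttgacAGGTCAagggaat

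The 250 bases before the start of Nr1i2 (chr16:38294825-38295074, minus strand) are shown because this gene had the widest difference among the members. Neither AGGTCA nor the repeats above were found in its window.
Nr1i2: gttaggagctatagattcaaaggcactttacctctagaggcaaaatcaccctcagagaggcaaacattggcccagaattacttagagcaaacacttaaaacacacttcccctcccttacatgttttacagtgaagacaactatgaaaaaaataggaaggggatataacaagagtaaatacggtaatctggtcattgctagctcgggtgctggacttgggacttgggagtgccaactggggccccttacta

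Each value given is a log2 signal from which the array's own 75th percentile was subtracted. A difference is the BDL mean minus the sham mean, also in log2 units. The arrays were alike over all features (Pearson's r of 0.974 to 0.985 for pairs of arrays, computed over genes rather than replicates), and 57.7% to 63.1% of spots were well above background. All 10 proximal tubule markers were well above background on every array. Of 8 adrenal markers, 5 were so on every array, and Cyp11a1, Cyp11b1 and Mc2r on none. Of 8 hepatocyte markers, 6 were so on every array, and Cyp7a1 on none. BDL replicate 1 stood apart in markers of fat and of urothelium. The summed signal of 8 adipocyte genes was 188 times the 75th percentile there and 14.3 to 29.9 times on the other arrays, and that of 6 urothelial genes was 57.8 against 1.26, 2.69 and 8.06. Sham replicate 1 had the highest sum of 6 macrophage genes (259 against 50.6 to 60.4). Most of that sum was Cd74, at 7.72 there and between 4.17 and 4.37 elsewhere. The other macrophage genes were also highest in sham replicate 1, but by less. Csf1r was 5.40 and 5.27 in sham and 4.86 and 4.92 in BDL, and C1qa was 1.31 and -0.20 in sham and 0.66 and 0.78 in BDL. Other marker lists differed between the groups on both BDL arrays, with 0 genes past the threshold. Over all features, 17.4% were higher without overlap and 19.3% lower. All 6 podocyte genes were higher in BDL (5 without overlap, 83.3%, median 0.51), as were all 6 intercalated cell genes (4 without overlap, 66.7%, median 0.65). All 5 distal convoluted tubule genes were higher (2 without overlap, 40.0%, median 0.59). Lower were 6 of 7 T and B lymphocyte genes, each of the 6 without overlap (85.7%, median -0.95). So were 6 of 7 hepatocyte genes (3 without overlap, 42.9%, median -0.44). Their part in the members' values was not tested.

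None of the 33 measured members passed the threshold, an adjusted p of 0.05 in limma over all features (0%, as for the 24044 features together). The smallest adjusted p among them was 0.762, and 1 member had an unadjusted p under 0.05 (3.03%, against 5.62% of all features). Higher in BDL without overlap between the groups were 6 members (18.2%, background 17.4%), Nr1i2, Hnf4g, Rara, Nr6a1, Rora and Ncor1. Lower without overlap were 5 (15.2%, background 19.3%), Ppard, Nr1h3, Rxrg, Esrrg and Nr3c1. Both shares lie near the background. The median difference over the members was 0.02 against -0.01 over all features, with 17 members higher and 16 lower. Of all 24044 features, 11675 were higher and 12369 lower, the background for the counts of higher and lower genes in the lists below.

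The spread within a group was wide next to the differences. In 27 of 33 members the difference was smaller than the larger gap between 2 replicates of a group. The other 6 were Nr1i2, Hnf4g, Rara, Nr6a1, Nr3c1 and Ncor1. This count was not made over all features, so it shows no trait particular to the members. The median absolute difference was 0.26 over the members and 0.21 over all features. Median gaps were 0.31 in sham and 0.30 in BDL over the members, and 0.31 and 0.23 over all features. For 17 members the 95% interval lay within a 2-fold change in either direction, and for 16 it reached past 2-fold. These interval counts were not made over all features either.

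**Figure D1:**
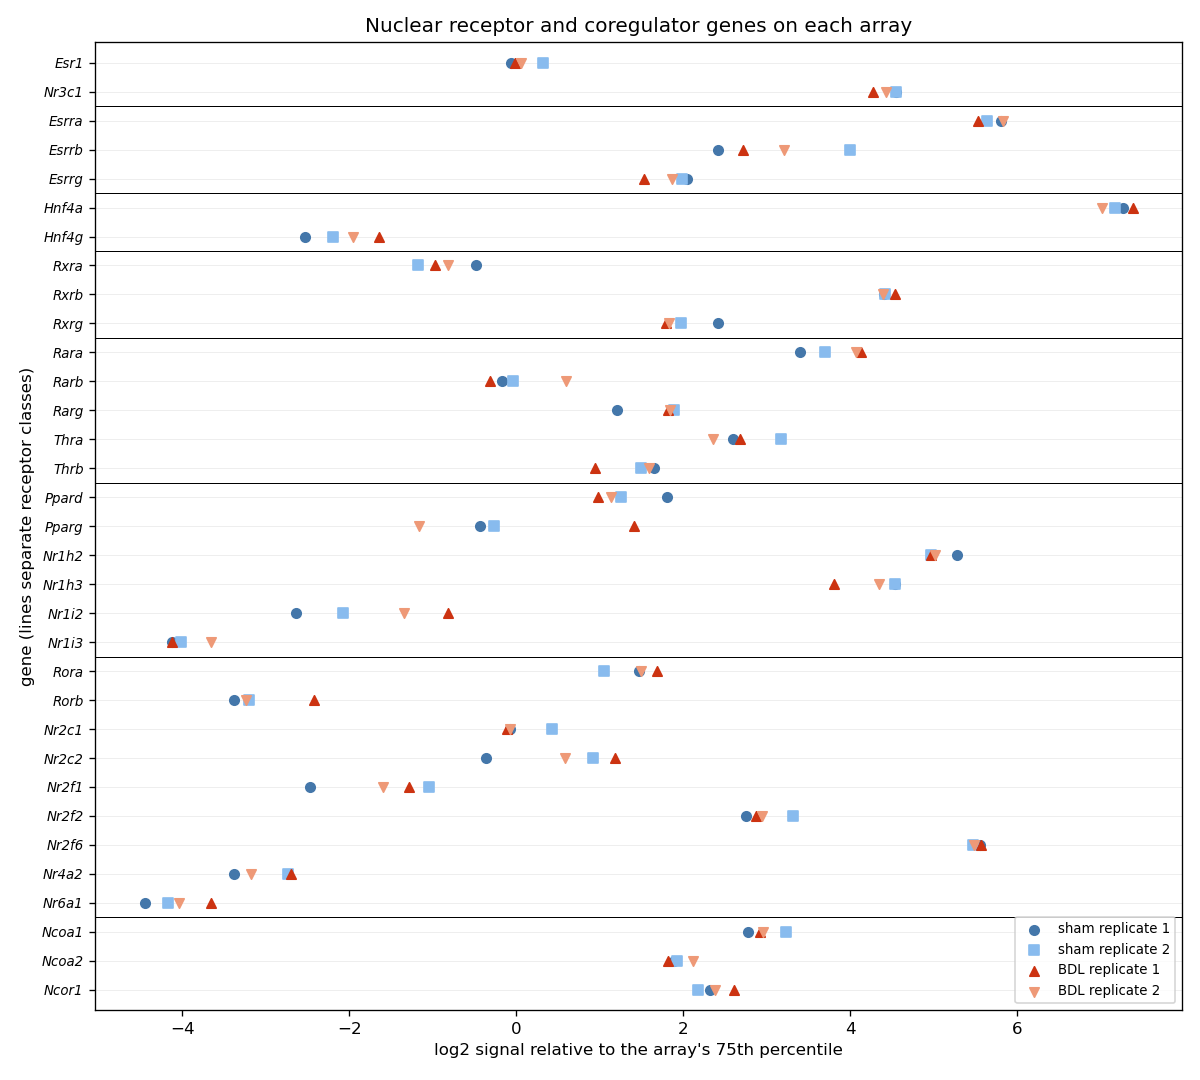
Log2 signal after subtracting each array's 75th percentile (horizontal axis) for the 33 measured genes, with 1 point per array and lines between receptor classes. The BDL triangles stand apart from the sham points for Nr1i2, while Pparg has BDL replicates at opposite ends, 1.41 and -1.16. Brightness depends on the probe, so positions are not compared between genes.

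**Figure D2:**
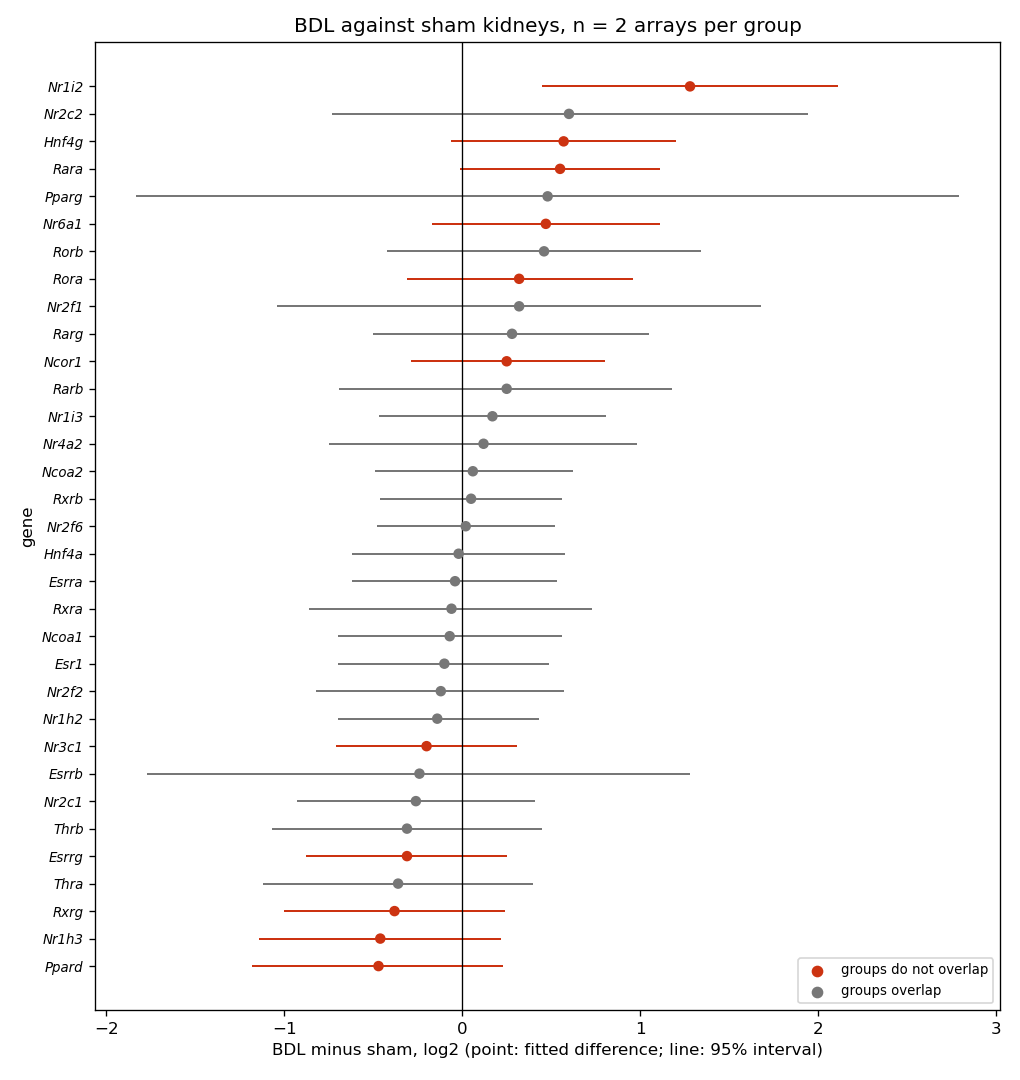
BDL minus sham on the log2 scale with 95% intervals for the same 33 genes, n = 2 arrays per group. Genes in red have no overlap between the groups. The differences run from -0.47 to 1.28, and the interval of Nr1i2 alone, from 0.45 to 2.11, does not hold 0.

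The receptors for xenobiotics, PXR (Nr1i2) and CAR (Nr1i3), sense drugs and bile acids and switch on detoxifying enzymes in liver and gut. Nr1i2 was -2.64 and -2.08 in the sham kidneys and -0.82 and -1.34 in the BDL kidneys. Both BDL kidneys lay above both sham kidneys, and the gap between the groups exceeded the gap within either. The difference was 1.28 (SE 0.31), a 2.43-fold higher signal in BDL, with an unadjusted p of 0.0116 and a limma adjusted p of 0.762. It rests on 1 probe, well above background on all 4 arrays but dim, between the 58.4 and 70.2 percentile of its array. Leaving out each array in turn gave 1.00 to 1.57, and without BDL replicate 1, the kidney high in fat and urothelial markers, it was 1.02.

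Nr1i3 was -4.12 and -4.01 in sham and -4.12 and -3.66 in BDL, and the groups overlapped (0.17, SE 0.24). A further probe of Nr1i3 stayed below that level throughout. Of 15 listed target genes of PXR and CAR, 9 were measured, 0 passed and the median was 0.01. Cyp3a11, the classical hepatic PXR target, Cyp3a25, Cyp2c55 and Ces2a were not well above background on both arrays of either group. Cyp2b10, the classical CAR target, was 1.43 and -1.09 in sham and 0.20 and 0.14 in BDL. Abcb1a, which encodes a drug efflux pump, was the listed target without overlap between the groups, at -2.59 and -0.97 in sham and 0.23 and -0.89 in BDL (1.44, SE 0.68, adjusted p = 0.872). Without sham replicate 1 the Abcb1a difference was 0.63.

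The liver X receptors (Nr1h2 and Nr1h3) bind oxysterols and raise cholesterol efflux and fatty acid synthesis genes. Nr1h3 was 4.54 and 4.53 in sham and 3.80 and 4.34 in BDL. The sham kidneys were nearly equal, and BDL replicate 1 supplied most of the difference of -0.46 (SE 0.26, adjusted p = 0.872), which was -0.19 without that array. Its other probe gave -0.21 (SE 0.23) with the same sign. Nr1h2, the ubiquitous form, was 5.28 and 4.96 in sham and 4.96 and 5.01 in BDL, so the groups overlapped (-0.14, SE 0.21).

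Of 12 listed liver X receptor targets, 10 were measured and 8 were higher in BDL, with a median of 0.32 and 0 past the threshold. Fasn, fatty acid synthase, was higher by 0.63 (SE 0.20), Apoe by 1.03 (SE 0.40) and Srebf1, the lipogenic regulator, by 0.50 (SE 0.29), each without overlap. The Apoe difference was 0.50 without BDL replicate 1, the kidney high in fat cell markers, and that of Srebf1 was 0.19 without BDL replicate 2. Abca1, the cholesterol efflux pump most used as a readout of these receptors, differed by 0.00 (SE 0.24) and Abcg1 by 0.15 (SE 0.29). Without sham replicate 1, 6 of the 10 were higher and the median was 0.14, and it was 0.52 without sham replicate 2 and 0.18 without BDL replicate 2.

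PPAR delta and gamma respond to fatty acids. PPAR delta is broadly expressed, and PPAR gamma is the master regulator of fat cells. Ppard was 1.81 and 1.25 in sham and 0.98 and 1.13 in BDL, lower without overlap (-0.47, SE 0.27, adjusted p = 0.872). Sham replicate 1 was the high array, and without it the difference was -0.20.

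Pparg was -0.44 and -0.27 in sham, and 1.41 and -1.16 in BDL. The BDL kidneys lay on either side of the sham kidneys, further apart than for any other member. The fitted difference of 0.48 (SE 0.87) turned to -0.80 without BDL replicate 1 and was 1.76 without BDL replicate 2. Fat cell genes followed the same array. Cfd, which encodes adipsin, was 1.61 and -2.54 in sham and 6.41 and -4.19 in BDL. Fabp4, a fatty acid binding protein of fat cells and endothelium, was 6.26 and 3.82 in BDL and 3.49 and 4.88 in sham. Of the 8 adipocyte markers, 3 were well above background on all 4 arrays, and each of the 8 was so on at least 1 array. The defining markers Adipoq, Plin1 and Lep were not so on both arrays of either group. They were left out of the fit for that reason, which is not a sign that they were absent. The part of fat tissue in the Pparg values was not tested.

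Of 14 listed PPAR gamma and delta targets, 13 were measured, with 8 higher, 5 lower and 0 past the threshold (median 0.39). Leaving out 1 array moved this median both ways. It was 0.80 without BDL replicate 2 (8 of 13 higher), 0.19 without BDL replicate 1 (7 higher), 0.19 without sham replicate 1 (10 higher) and 0.07 without sham replicate 2 (7 higher). Angptl4, an inhibitor of lipoprotein lipase, was 3.48 and 4.05 in sham and 4.57 and 5.22 in BDL (1.13, SE 0.34), and Acsl1, an acyl-CoA synthetase, was higher by 0.81 (SE 0.31), or by 0.46 without sham replicate 1. In both genes neither BDL kidney overlapped the sham kidneys. Aqp7, a glycerol channel of fat cells and proximal tubule, was lower without overlap (-0.49, SE 0.22).

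**Figure D3:**
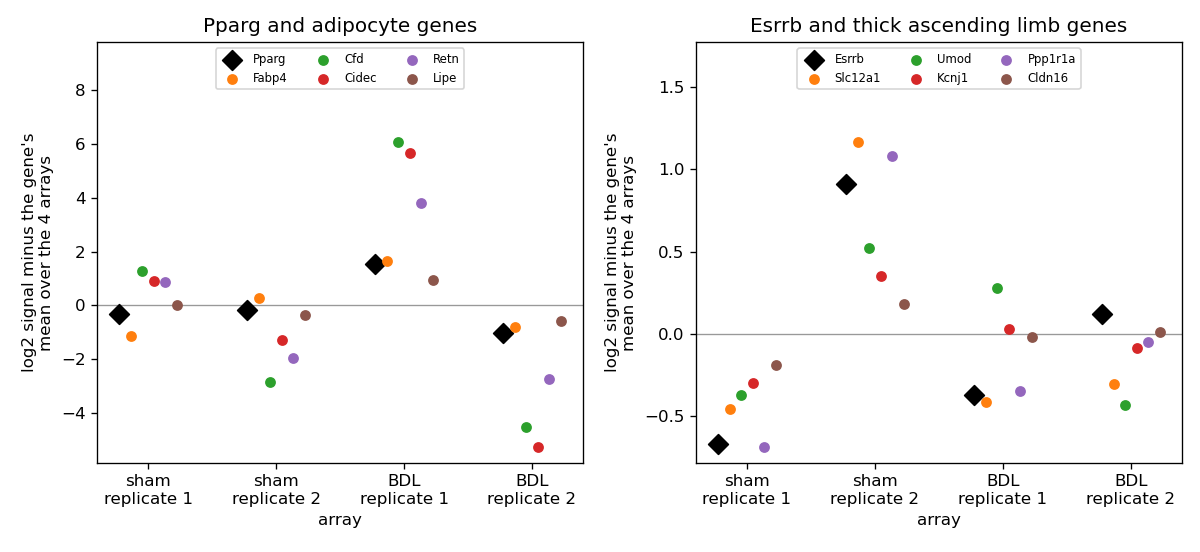
Log2 signal of each gene minus its mean over the 4 arrays, for Pparg with 5 adipocyte genes (left) and Esrrb with 5 thick ascending limb genes (right), 1 point per gene and array. Pparg and the adipocyte genes are highest in BDL replicate 1, where the log2 signal before centring is 1.41 for Pparg and 6.41 for Cfd. Esrrb and the 5 limb genes are highest in sham replicate 2, with Esrrb at 3.99 and Slc12a1 at 3.80 before centring.

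The retinoic acid receptors (Rara, Rarb and Rarg) and the retinoid X receptors carry the vitamin A signal. Rara was 3.40 and 3.70 in sham and 4.13 and 4.07 in BDL. The BDL kidneys were close together and above both sham kidneys, a 1.46-fold higher signal (0.55, SE 0.21, unadjusted p = 0.0527, adjusted p = 0.872). Its other probe was 0.50 and 0.98 in sham and 1.41 and 1.54 in BDL (0.73, SE 0.25 in the fit over all probes), again without overlap. Both probes carry the same transcript accession and are not separate evidence of a change in the animals.

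Rarb, whose promoter holds the repeat printed above, was -0.17 and -0.04 in sham and -0.31 and 0.59 in BDL. The BDL kidneys lay on either side of the sham kidneys (0.25, SE 0.35). Its second probe had the same order in BDL, -3.21 and -2.02, against -3.02 and -3.32 in sham (0.55, SE 0.45). Rarg was 1.21 and 1.89 in sham and 1.82 and 1.84 in BDL, so sham replicate 1 alone was low (0.28, SE 0.29).

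Among the obligate partners, Rxrb was 4.40 and 4.42 in sham and 4.53 and 4.39 in BDL, with an interval from -0.46 to 0.56. Rxra was -0.48 and -1.18 in sham and -0.97 and -0.82 in BDL, with the BDL kidneys inside the sham range (-0.06, SE 0.30), and its second probe gave -0.17 (SE 0.25). Rxrg, a form known mainly from muscle and brain, was 2.41 and 1.97 in sham and 1.79 and 1.83 in BDL, lower without overlap (-0.38, SE 0.24, adjusted p = 0.872), with a difference of -0.16 without sham replicate 1. Its second, dimmer probe had the opposite sign (0.31, SE 0.49), at -3.28 and -3.02 in sham and -2.16 and -3.51 in BDL, so the direction for Rxrg depends on the probe.

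Of 12 listed retinoic acid receptor targets, 9 were measured and 8 were higher in BDL, with a median of 0.51 and 0 past the threshold. Leaving out sham replicate 1 lowered that median to 0.27, and leaving out sham replicate 2 gave 0.31 with 6 of 9 higher. Cyp26b1 and Cyp26a1, which break down retinoic acid and are induced by it, differed by 2.47 (SE 0.23, adjusted p = 0.254) and 0.51 (SE 0.29). The Cyp26a1 probe was well above background on 1 of 2 sham arrays, and its difference was 0.08 with the normexp background correction and 0.18 without sham replicate 1. Rarres2, which encodes chemerin and is also a fat cell product, was 3.86 and 3.66 in sham and 6.75 and 5.80 in BDL (2.51, SE 0.37, adjusted p = 0.574). Dhrs3, a retinaldehyde reductase induced by retinoic acid, differed by 0.40 (SE 0.25), and Crabp2, a retinoic acid carrier, by 0.00 (SE 0.22).

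The thyroid hormone receptors were lower by their means, with overlap between the groups. Thra was 2.59 and 3.17 in sham and 2.68 and 2.36 in BDL (-0.36, SE 0.29). Its second probe gave -2.29 and -2.26 in sham and -2.24 and -2.28 in BDL, a difference of 0.01 (SE 0.19). These probes of 1 transcript accession lie several log2 units apart on every array, which shows how far brightness depends on the probe. Thrb was 1.65 and 1.49 in sham and 0.94 and 1.59 in BDL, low in BDL replicate 1 alone (-0.31, SE 0.29), and its second probe gave -0.08 (SE 0.21).

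In the RefSeq table, Thra overlaps the end of Nr1d1, the gene of the clock repressor REV-ERB alpha. Nr1d1 had the widest difference of the other receptors listed, 0.55 and 0.16 in sham against -1.53 and -1.44 in BDL (-1.84, SE 0.23, adjusted p = 0.422). Of 10 listed thyroid hormone targets all 10 were measured, 7 were higher and 0 passed, with a median of 0.03. Without sham replicate 2, 3 of the 10 were higher, and 3 were higher without BDL replicate 2. Dio1, the deiodinase that thyroid hormone induces, was 0.20 and 1.55 in sham and -1.28 and 0.57 in BDL (-1.23, SE 0.78), with the groups overlapping. Me1, malic enzyme, was the listed target without overlap (-0.42, SE 0.25).

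Among the steroid receptors, the glucocorticoid receptor gene Nr3c1 was 4.55 and 4.55 in sham and 4.27 and 4.43 in BDL, lower without overlap by 1.15-fold (-0.20, SE 0.19, adjusted p = 0.900). The second probe of Nr3c1 was 0.04 and 0.14 in sham and 0.12 and 0.43 in BDL and had the opposite sign (0.19, SE 0.22). Neither direction was therefore held by both probes. Esr1, the estrogen receptor alpha gene, was -0.06 and 0.32 in sham and -0.02 and 0.06 in BDL. The BDL kidneys of Esr1 lay within the sham range (-0.10, SE 0.22), and its second probe differed by 0.09 (SE 0.39). Pgr, the progesterone receptor gene, was not well above background except for 1 probe on 1 array (sham replicate 2), and no difference is given.

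All 12 listed glucocorticoid receptor targets were measured, and 11 were higher in BDL with a median of 0.27 and 0 past the threshold. Over all features, 11675 of 24044 were higher. Some of the 11 hardly differed, such as Klf9 (0.02, SE 0.22) and Errfi1 (0.02, SE 0.29). Ddit4 was the lower target (-0.50, SE 0.39). Tsc22d3, which encodes the glucocorticoid-induced leucine zipper protein, was 3.57 and 3.63 in sham and 4.37 and 4.73 in BDL (0.95, SE 0.22, unadjusted p = 0.00968, adjusted p = 0.760). Sgk1, a kinase that activates sodium transport, was higher by 0.83 (SE 0.24) without overlap. Zbtb16, a zinc-finger repressor, was 1.35 and -0.60 in sham and 1.75 and 2.16 in BDL (1.58, SE 0.69), and its difference was 2.56 without sham replicate 1 and 0.60 without sham replicate 2. Fkbp5, a chaperone and common readout of the receptor, was 4.40 and 3.24 in sham and 4.21 and 4.72 in BDL, with overlap, and Per1 differed by 0.17 (SE 0.23). The share of higher targets was 8 of 12 without sham replicate 1 and 8 of 12 without BDL replicate 2, and the median was 0.43 without sham replicate 2. Sgk1 and Zbtb16 are also known to respond to other steroids, and the share of each receptor was not tested.

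The estrogen-related receptors have no known natural hormone and drive mitochondrial genes. Esrra was 5.80 and 5.64 in sham and 5.53 and 5.83 in BDL, and the groups overlapped (-0.04, SE 0.22, interval from -0.62 to 0.53). Esrrg was 2.04 and 1.98 in sham and 1.53 and 1.86 in BDL, lower without overlap (-0.31, SE 0.21, adjusted p = 0.877), and its second probe gave -0.22 (SE 0.24) with overlap. In Esrrg, BDL replicate 1 was the low array, and without it the difference was -0.15.

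Esrrb was 2.41 and 3.99 in sham and 2.71 and 3.20 in BDL. The sham kidneys lay on either side of the BDL kidneys, and the difference of -0.24 (SE 0.58) turned to 0.54 without sham replicate 2 and was -1.03 without sham replicate 1. Genes of the thick ascending limb, the salt-reabsorbing segment of the loop of Henle, also had their highest summed signal in sham replicate 2. Slc12a1, the salt cotransporter of that segment, was 2.18 and 3.80 in sham and 2.22 and 2.33 in BDL. The summed signal of 5 such markers, all well above background, was 282 and 521 in sham and 426 and 280 in BDL. Collecting duct principal cell genes were highest in sham replicate 2 as well (46.0 and 102 in sham, 57.4 and 62.0 in BDL). Distal convoluted tubule genes were lowest in that array (48.9 and 21.8 in sham, 47.1 and 48.4 in BDL). Whether the share of any of these segments in the sample moved Esrrb was not tested.

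Of 13 listed targets of the estrogen-related receptors, all were measured, 10 were lower and 3 higher, with a median of -0.20 and 0 past the threshold. Cox5b, a subunit of cytochrome c oxidase, was 7.35 and 7.18 in sham and 6.61 and 6.35 in BDL (-0.79, SE 0.21), and Acadm, a medium-chain fatty acid dehydrogenase, was lower as well without overlap (-0.37, SE 0.20). Pdk4, which blocks pyruvate oxidation, had the opposite sign (1.18, SE 0.55) and is also among the listed glucocorticoid and PPAR targets. It was 0.49 without BDL replicate 1. The median was -0.01 without sham replicate 1 and -0.11 to -0.29 with another array left out.

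Hepatocyte nuclear factor 4 alpha (Hnf4a) was one of the brightest members, between the 99.2 and 99.4 percentile of its array. It was 7.26 and 7.17 in sham and 7.38 and 7.01 in BDL. The difference of -0.02 (SE 0.23) has an interval from -0.62 to 0.58, and its sign changed with the scaling of the arrays. Its relative Hnf4g was -2.53 and -2.20 in sham and -1.64 and -1.95 in BDL, a 1.49-fold higher signal without overlap (0.57, SE 0.24, unadjusted p = 0.0665, adjusted p = 0.872). The Hnf4g difference stayed between 0.41 and 0.74 when each array was left out in turn. Nr5a2, the liver receptor homologue that controls bile acid synthesis in the liver, was well above background with 1 of its 2 probes on 1 array (sham replicate 2), and no difference is given.

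All 14 listed HNF4A targets were measured, with 6 higher, 8 lower and 0 past the threshold (median -0.04). Ttr, which encodes the retinol and thyroxine carrier transthyretin, was -1.51 and -2.11 in sham and -3.16 and -2.92 in BDL (-1.23, SE 0.28). Cubn, the endocytic receptor cubilin, was higher without overlap (0.38, SE 0.19). With sham replicate 1 left out, 10 of 14 were higher and the list's median was 0.06.

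Among the remaining orphan receptors, Rora, an activator in the circadian clock, was 1.47 and 1.05 in sham and 1.68 and 1.49 in BDL, with a difference of 0.32 (SE 0.24, adjusted p = 0.885). The lower BDL kidney and the higher sham kidney were nearly equal in Rora, and without sham replicate 2 the difference was 0.12. Rorb was -3.38 and -3.20 in sham and -2.42 and -3.24 in BDL, so BDL replicate 1 alone was high (0.46, SE 0.33), and without that array the difference was 0.05. Its second probe was 0.39 (SE 0.30).

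Nr6a1, the germ cell nuclear factor, was -4.45 and -4.17 in sham and -3.65 and -4.04 in BDL, higher without overlap (0.47, SE 0.24, adjusted p = 0.872). This signal is dim, and with the normexp background correction the difference was 0.19. The testicular receptors Nr2c1 and Nr2c2 act mostly as repressors. Nr2c1 was -0.08 and 0.43 in sham and -0.11 and -0.07 in BDL (-0.26, SE 0.25), and its second probe had the opposite sign (0.14, SE 0.23).

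Nr2c2 was -0.36 and 0.92 in sham and 1.18 and 0.58 in BDL. Sham replicate 1 was the low array, and without it the difference of 0.60 (SE 0.50) became -0.04. The second probe of Nr2c2 had the same low array, -1.52 and -0.55 in sham and -0.25 and -0.77 in BDL (0.53, SE 0.41). Nr2f1 and Nr2f2 encode COUP factors, and Nr2f2 is known from venous endothelium and mesenchyme. Nr2f1 was -2.47 and -1.05 in sham and -1.29 and -1.60 in BDL, again low in sham replicate 1 alone (0.32, SE 0.52), and its second probe showed the same array low at -3.91, with -2.54 in the other sham kidney and -2.91 and -2.55 in BDL.

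Nr2f2 was 2.75 and 3.31 in sham and 2.87 and 2.94 in BDL, with the BDL kidneys inside the sham range (-0.12, SE 0.26). The third COUP family gene, Nr2f6, was 5.55 and 5.47 in sham and 5.56 and 5.48 in BDL, the closest agreement of any member (0.02, SE 0.19, interval from -0.48 to 0.52). Endothelial markers, 8 of 8 well above background, summed to 42.1 and 53.9 in sham and 53.3 and 50.6 in BDL, and fibroblast markers to 27.6 and 27.4 in sham and 40.5 and 28.9 in BDL. Sham replicate 1 was the lowest array in the endothelial sum, as in Nr2f1 and Nr2f2, and the part of this in those values was not tested.

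The NR4A receptors are immediate early genes that act without ligand. Nr4a2 was -3.38 and -2.73 in sham and -2.70 and -3.18 in BDL, with overlap (0.12, SE 0.33), and its second probe gave 0.25 (SE 0.24). Nr4a3 did not stand well above background on any array, and no difference is given. The third receptor of the family, Nr4a1, is not among the 36 genes and was 1.36 and 1.04 in sham and 2.14 and 1.80 in BDL (0.77, SE 0.24, adjusted p = 0.861). Of 18 listed immediate early genes, 15 were measured, 12 were higher and 0 passed (median 0.30), among them Fos by 1.03 (SE 0.23) and Myc by 0.72 (SE 0.21). The median of the list lay between 0.33 and 0.56 with each array left out in turn.

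The coregulators differed little. The coactivator Ncoa1 was 2.78 and 3.23 in sham and 2.92 and 2.96 in BDL (-0.07, SE 0.24), and its other probes gave -0.19 (SE 0.19) and -0.03 (SE 0.22). Ncoa2 was 1.89 and 1.93 in sham and 1.82 and 2.12 in BDL (0.06, SE 0.21). The corepressor Ncor1 was 2.32 and 2.17 in sham and 2.61 and 2.38 in BDL, higher without overlap by 1.19-fold (0.25, SE 0.21, adjusted p = 0.888). Its 2 dimmer probes, on other transcript accessions, had the opposite sign, -0.06 (SE 0.23) and -0.26 (SE 0.22), and the mean of all 3 probes gave -0.02.

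Of 25 further coregulators listed, all were measured, 18 were higher and 7 lower with a median of 0.12 and 0 past the threshold. Without sham replicate 1, 15 were higher and 10 lower with a median of 0.05, and the other arrays left out in turn gave medians of 0.07 to 0.20. Ncoa7 was -0.07 and 0.00 in sham and 0.68 and 1.00 in BDL (0.88, SE 0.21, unadjusted p = 0.0115, adjusted p = 0.762), and Lcor, a ligand-dependent corepressor, was higher by 0.55 (SE 0.20). Pnrc2 was lower without overlap (-0.31, SE 0.22), by a difference of -0.12 without BDL replicate 1. Ppargc1a, a coactivator of the estrogen-related receptors and PPARs, differed by 0.18 (SE 0.25). Of the 15 other receptors listed, 12 were measured, 6 were higher and 6 lower, and 0 passed. Vdr differed by -0.45 (SE 0.37), Ppara by 0.25 (SE 0.24) and the bile acid receptor gene Nr1h4 by -0.17 (SE 0.25), each with overlap.

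**Figure D4:**
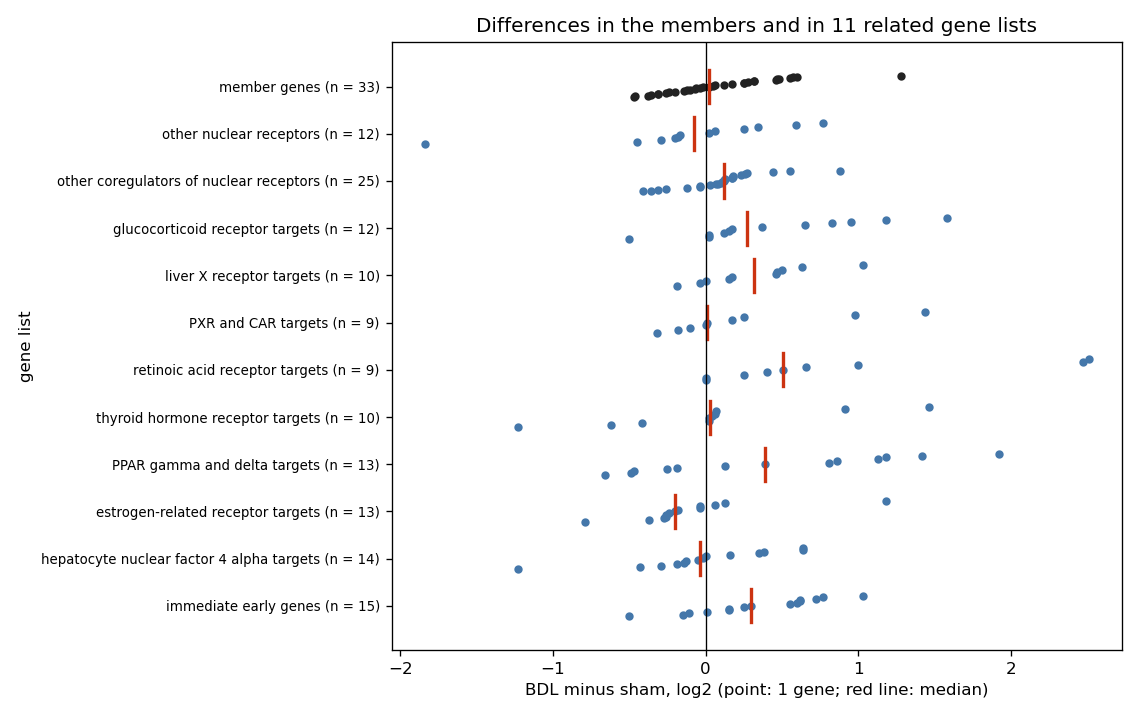
BDL minus sham on the log2 scale for the 33 measured members (top) and for 11 lists of related genes, 1 point per gene, with the median as a red line. Medians run from -0.20 for estrogen-related receptor targets to 0.51 for retinoic acid receptor targets, against 0.02 for the members, and no gene in any list passed the threshold.

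Where a gene had several probes above background, they could be set against each other. Of 17 such members, 11 had probes of the same sign and 6 did not, Esr1, Nr3c1, Rxrg, Thra, Nr2c1 and Ncor1. Of the 11 members without overlap between the groups, 5 rest on a single probe above background (Nr1i2, Hnf4g, Rora, Ppard and Nr6a1). Rara was without overlap on each of its probes, and Nr1h3 and Esrrg on 1 of 2. Nr3c1, Rxrg and Ncor1 had probes of opposite sign.

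**Figure D5:**
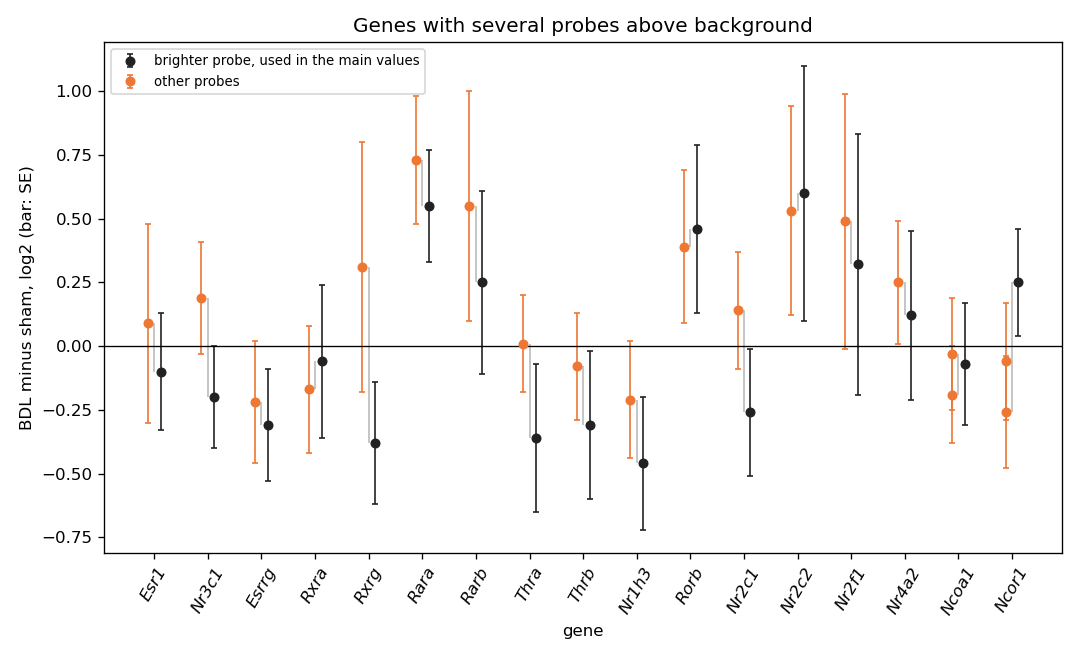
BDL minus sham on the log2 scale for every probe above background of the 17 genes with several such probes, with SE bars, the brightest probe in black and the others in orange. Both probes of Rara lie above 0, at 0.55 and 0.73, while the probes of Nr3c1, Rxrg and Ncor1 fall on either side.

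The array that held a member's highest or lowest value varied between members. The shares below describe 33 genes on 4 arrays and were not tested. BDL replicate 1 held the highest value in 13 of 33 members (39.4%, against 25.5% of all features) and the lowest in 12 (36.4%, against 26.0%). Sham replicate 1 held the highest in 7 (21.2%, against 35.4%) and the lowest in 13 (39.4%, against 27.9%). Sham replicate 2 held the highest in 9 (27.3%, against 21.4%) and the lowest in 4 (12.1%, against 25.4%). For BDL replicate 2 it was the highest in 4 (12.1%, against 17.6%) and the lowest in 4 (12.1%, against 20.7%). The gap between the sham kidneys was the wider one in 19 of 33 members, a count not made over all features. Median gaps were 0.31 in sham and 0.30 in BDL over the members, and 0.31 and 0.23 over all features.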

How the data were processed

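Total RNA was labelled with Cy3 and hybridised 1 sample per array, per the labels' protocols. The submitters' processing notes name Agilent Feature Extraction 11.0.1.1. The deposited processed signal is a linear intensity, per the file headers, with the background subtracted and no scaling across arrays. All 4 arrays share 1 slide and 1 scan, so no batch term could be fitted. The authors' deposited value table is an intensity as well, in which each array's processed signals were divided by a single number. The numbers were 709.0, 844.4, 738.5 and 939.8 for sham 1, sham 2, BDL 1 and BDL 2 (column medians 0.328, 0.339, 0.329 and 0.330). What each number was set on is not stated. The arrays' 75th percentile signals were close to them (711.7, 849.5, 740.6 and 944.7), so that table is scaled much like the main values.

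From the processed signal, log2 values minus each array's 75th percentile were taken, leaving out control and outlier spots (0 spots were saturated). Deposited flags other than these were used only for "well above background". Of 55681 probes 13 had no usable spot on some array. Accessions named 27229 of the remaining 55668 through RefSeq (GRCm38.p6). The array grid names mm9, so coordinates were not used to assign probes to genes. Probes well above background on both arrays of 1 group were retained (32283), and the brightest represents its gene. The fit of BDL against sham used limma 3.58.1 (R 4.3.3, two-sided, Benjamini-Hochberg over 24044 features, threshold 0.05), a fit tested on simulated data. An exact permutation test of 2 against 2 cannot go below 0.333. The series calls the replicates biological, and the number of arrays limits the precision. The normexp alternative used the median spot signal, since no mean signal column was used here.

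The members and gene lists were chosen with earlier results of these data known. Full values are given for members without overlap, with the 8 smallest p-values, with a gap over 1 between replicates or with probes of different sign, and for up to 3 genes per list; other list genes were named after their values were seen. Some listed genes are not reported here.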

Additional observations from a re-analysis of the deposited data

How the results depend on the processing

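In each of 16 alternatives (scaling, background correction, the deposited table, filters, choice of probe, array weights, variance trend, replicate block and each array left out in turn) limma called 0 members and 0 of all features, with 845 to 2793 features at an unadjusted p under 0.05. The replicate numbers did not pair the arrays (correlation of same-numbered deviations 0.06), and the replicate block gave a smallest adjusted p of 0.314 over all features and 0.787 over the members. The adjusted p of Nr1i2 ran from 0.377 to 1.00. Apart from leaving out arrays, 27 members kept their direction, a count not made over all features. The exceptions were Hnf4a (0.05 with quantile scaling, 0.00 with the array median and with the percentile over detected probes, 0.03 with normexp), Esrra (0.01 with quantile scaling), Nr2f6 (0.00) and Nr4a2 (-0.08) with normexp, Esr1 (0.08 in the deposited table) and Ncor1 (-0.02 as the mean of its probes).

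With each array left out in turn, the lone array of its group is assumed to vary like the others. The members' median ran from -0.09 to 0.12. Without BDL replicate 2, 25 members did not overlap (75.8%, against 66.0% of all features), and without BDL replicate 1, 19 (57.6%, against 60.5%). The number was 21 without sham replicate 1 (63.6%, against 69.6%) and 23 without sham replicate 2 (69.7%, against 77.1%). With 1 array set against 2, most features do not overlap, so these counts are not comparable with the 11 of the full comparison. The difference changed sign in 19 members, with ranges of -0.29 to 0.08 for Esr1, -0.19 to 0.11 for Esrra, -1.03 to 0.54 for Esrrb, -0.21 to 0.17 for Hnf4a, -0.29 to 0.16 for Ncoa1, -0.09 to 0.21 for Ncoa2, -0.29 to 0.02 for Nr1h2, -0.06 to 0.40 for Nr1i3, -0.04 to 1.24 for Nr2c2, -0.39 to 1.03 for Nr2f1, -0.40 to 0.16 for Nr2f2, -0.03 to 0.06 for Nr2f6, -0.21 to 0.44 for Nr4a2, -0.80 to 1.76 for Pparg, -0.21 to 0.70 for Rarb, -0.06 to 0.62 for Rarg, -0.41 to 0.28 for Rxra, -0.02 to 0.13 for Rxrb and -0.63 to 0.01 for Thrb. The count of 19 was not made over all features, so it shows no trait particular to the members. The cause was not tested. The related gene lists were recomputed in the same way, an alternative chosen after seeing the data. Dim members such as Nr6a1 lie near the background, which limits them.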
